A study of Mus musculus with 12 samples.

Results

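Open chromatin was compared between LPS-treated and untreated RAW264.7 cells, a mouse macrophage line, of the stable line that carries a doxycycline-inducible Nur77 gene. The comparison uses 6 of the 12 samples of the series, 3 libraries of Nur77-line cells stimulated with lipopolysaccharide (LPS) at 500 ng/ml for 1 h and 3 libraries of untreated Nur77-line cells. All 6 samples had received 1 µg/ml doxycycline for 18 h, so both groups had the exposure that induces Nur77. Nur77 RNA and protein are not measured in these data. The other 6 samples, LPS-treated and untreated cells of a line with inducible green fluorescent protein (GFP), had the same exposures and serve here as a side-by-side comparison. Each line is a single stable line, the labels do not say whether it is 1 clone, and nothing in the labels states that replicates came from separate cultures, so a p-value here reflects only how these 3 libraries a group vary, a spread that could be technical. The assay was ATAC-seq, in which a transposase cuts and tags accessible DNA, and each library is represented by 1 list of called peaks in mm10 coordinates.

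After LPS, regions at inflammatory genes came up in the lists. The Ccl5 and Acod1 loci held strong regions that every LPS library called and no untreated library called, and regions at Tnf, Ccl4, Cxcl2, Cxcl10 and Tnfaip3 moved up in rank. Merging the 6 lists gave 74094 regions. Of these, 1563 (2.11%) were gained, meaning called in all 3 LPS libraries and in no untreated library, and 374 (0.505%) were lost, the reverse. At the 29063 regions called in all 6 libraries, the within-library rank by the authors' −log10 q rose at 1520 (5.23%) and fell at 857 (2.95%) by limma at an adjusted p under 0.05.

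LPS is a bacterial outer-membrane component that macrophages sense through Toll-like receptor 4 with its co-receptors CD14 and MD-2. Adaptor proteins and IRAK kinases pass the signal to the IκB kinases and the MAP kinases, which set free NF-κB and activate AP-1, the dimers of Fos and Jun proteins. These factors act within minutes to hours on cytokine, chemokine and feedback genes, and an interferon-driven wave follows. Nur77, encoded by Nr4a1, is an orphan nuclear receptor and itself an early gene of stimulated macrophages that has been linked to restraint of inflammatory genes.

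To show the DNA at which these calls fell, the 250 bases before the start of 6 genes are printed, from RefSeq promoter windows on GRCm38.p6, the assembly that mm10 follows. These genes belong to the gene lists used here, and they were chosen after values were seen. The starts of Acod1, which makes itaconate in activated macrophages, and Il1a, an interleukin-1 cytokine, lay in gained regions. The starts of Cxcl10 (a chemokine of interferon responses), Gbp2 (a guanylate-binding GTPase induced by interferon), Cxcl2 (a neutrophil chemokine) and Tnf (tumour necrosis factor) lay in regions with a rank rise. Sequences run 5′ to 3′ on the gene's strand. Capitals mark matches on either strand to 6 short motifs, AP-1 (TGANTCA), NF-kB (GGGANNNTCC), ISRE, the interferon-stimulated element (GAAANNGAAA), CRE (TGACGTCA), the Nur77 element NBRE (AAAGGTCA) and PU.1 (GAGGAAGT), where N is any base.
Acod1, chr14:103046762-103047011, strand plus: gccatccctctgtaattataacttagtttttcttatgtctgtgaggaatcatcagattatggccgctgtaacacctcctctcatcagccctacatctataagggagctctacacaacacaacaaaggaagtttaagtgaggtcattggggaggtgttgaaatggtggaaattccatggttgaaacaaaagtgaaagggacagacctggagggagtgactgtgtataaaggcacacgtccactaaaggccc
Il1a, chr2:129309973-129310222, strand minus: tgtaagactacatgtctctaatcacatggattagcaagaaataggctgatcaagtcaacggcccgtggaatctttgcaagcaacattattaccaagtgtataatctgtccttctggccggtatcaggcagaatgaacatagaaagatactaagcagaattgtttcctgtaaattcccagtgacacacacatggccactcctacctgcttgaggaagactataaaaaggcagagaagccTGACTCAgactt
Cxcl10, chr5:92348890-92349139, strand minus: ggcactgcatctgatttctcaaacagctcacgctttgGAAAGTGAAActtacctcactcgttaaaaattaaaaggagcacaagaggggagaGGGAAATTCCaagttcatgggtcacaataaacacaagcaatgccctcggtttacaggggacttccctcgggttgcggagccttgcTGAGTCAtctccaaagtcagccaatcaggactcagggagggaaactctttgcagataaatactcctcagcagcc
Gbp2, chr3:142620413-142620662, strand plus: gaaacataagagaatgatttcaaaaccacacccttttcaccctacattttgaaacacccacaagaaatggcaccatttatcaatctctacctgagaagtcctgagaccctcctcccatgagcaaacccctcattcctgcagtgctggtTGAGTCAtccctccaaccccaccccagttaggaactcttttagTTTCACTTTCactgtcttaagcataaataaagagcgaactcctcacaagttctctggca
Cxcl2, chr5:90903649-90903898, strand plus: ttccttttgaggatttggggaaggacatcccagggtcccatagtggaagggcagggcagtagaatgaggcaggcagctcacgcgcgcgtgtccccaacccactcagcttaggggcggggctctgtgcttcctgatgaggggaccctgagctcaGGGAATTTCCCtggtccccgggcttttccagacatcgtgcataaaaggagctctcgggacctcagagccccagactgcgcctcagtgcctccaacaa
Tnf, chr17:35202008-35202257, strand minus: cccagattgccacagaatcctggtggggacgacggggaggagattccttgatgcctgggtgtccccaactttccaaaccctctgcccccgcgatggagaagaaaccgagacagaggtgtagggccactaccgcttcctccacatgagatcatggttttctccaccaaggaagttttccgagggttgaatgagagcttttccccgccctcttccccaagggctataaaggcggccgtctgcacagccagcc

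The Il1a window held an AP-1 match that begins 12 bases before the start. The Cxcl10 window held an ISRE match 213 bases, an NF-kB match 159 bases and an AP-1 match 74 bases before the start. The Gbp2 window held AP-1 and ISRE matches at 102 and 59 bases. The Cxcl2 window held an NF-kB match on each strand, at 97 and 96 bases, which overlap in 1 capital run. The Acod1 and Tnf windows held no match, which says only that these letters are not in these 250 bases.

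Over all RefSeq promoter windows of this length, AP-1 letters stood in 9 of the 29 in gained regions (31.0%), in 26 of the 185 in regions with a rank rise (14.1%), in 11 of the 137 in regions with a rank fall (8.03%) and in 0 of the 10 in lost regions. The share was 4.60% of the 11923 windows in regions called in all 6 libraries and 6.75% of all 32851 windows. NF-kB letters stood in 6.90% of the windows in gained regions, 7.57% of those in rank-rise regions, 6.57% of those in rank-fall regions and 4.70% of those in regions called in all 6. The NBRE stood in 1 of the 29 windows in gained regions, 1 of the 185 in rank-rise regions and 3 of the 137 in rank-fall regions, against 0.805% of those in regions called in all 6. The GC box (GGGCGG), frequent at constitutively open promoters, stood in 6.90% of the windows in gained regions, 41.6% of those in rank-rise regions, 43.1% of those in rank-fall regions and 60.4% of those in regions called in all 6. Windows of neighbouring starts can overlap, and a match is a description of letters, not of binding.

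The 3 LPS libraries held 59858, 44790 and 52895 peaks and the 3 untreated libraries 55656, 36184 and 55446. The means, 52514 ± 7541 in LPS and 49095 ± 11182 in untreated libraries (SD, n = 3 each), gave p = 0.7 in a two-sided exact permutation test (0.933 adjusted over 4 library measures), whose smallest possible p is 0.1. Read totals are unknown from such lists. The background height recovered from the deposited fold values, a stand-in for depth, was 0.988, 0.665 and 0.612 reads in LPS and 0.759, 0.402 and 1.254 reads in untreated libraries, and untreated replicate 2 had both the lowest height and the shortest list. Rank correlations of libraries over regions called in all 6 ran from 0.901 to 0.956 within groups and from 0.841 to 0.905 between groups, a description over regions that share a library's depth. At RefSeq starts of macrophage marker genes, 7 of the 10 with a listed start were called in all 6 libraries (Cd68, Itgam, Lyz2, Cebpa, Cebpb, Runx1 and Fcgr1), while Cd36 and Mrc1 were called in none. Each library of both groups called between 7 and 8 of them. None of the starts of T-cell (5), B-cell (3), fibroblast (3) or epithelial (5) markers was called in any of the 6 libraries. Among 4 neuronal markers Tubb3 was called in all 6. Inside Nr4a1, a region at chr15:101270092-101272260 was called in 6 of 6 Nur77-line libraries and in 0 of 6 GFP-line libraries, which sets the lines apart. Whether its reads came from the introduced Nur77 gene or from the cells' own Nr4a1 cannot be told from peak lists and was not tested. The rank shift of this region with LPS was 0.13 (limma adjusted p = 0.807).

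Gained regions lay farther from listed gene starts than regions called throughout, and were weaker, which the call rule itself favours. Their median percentile by −log10 q within a library's own list was 30.8, against 68.8 for regions called in all 6 and 33.1 for all regions. Their median called length was 471 bp, against 1068 bp and 512 bp. A listed RefSeq start lay inside 29 of the 1563 gained regions (1.86%) and 10 of the 374 lost regions (2.67%). The shares were 29.8% of the regions called in all 6 and 13.0% of all regions. The list of starts is incomplete, with 146 of 195 list genes and none on chromosome 18, so these counts are low. Either end of a protein-coding gene lay within 1 kb of 5.63% of gained and 19.5% of lost regions. That compares with 35.7% of the regions called in all 6 and 19.1% of all regions, so lost regions were close to all regions by this measure. Gained regions lay beyond 50 kb of any protein-coding gene in 13.9% of cases and lost regions in 5.35%, against 7.43% of all regions. The median distance to the nearest listed start was 21552 bp for gained and 11489 bp for lost regions, against 12587 bp for all regions.

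List length bears on these counts. With every list trimmed to its strongest 36184 peaks, the length of untreated replicate 2, 47264 regions remained, of which 1298 (2.75%) were gained and 669 (1.42%) lost. Of the 1563 regions gained in the lists as deposited, 564 (36.1%) were gained in the trimmed lists too, and of the 374 lost regions 60 (16.0%) were. The 564 had a median list percentile of 50.8 and the 60 one of 39.9. Of the 669 losses in trimmed lists, 229 lay in regions that all 6 full lists called, and 116 of those had a rank fall. Leaving out LPS replicate 2 or untreated replicate 3 gave 3019 or 2352 gained regions, and leaving out LPS replicate 1 or untreated replicate 2 gave 931 or 2156 lost regions. A single region called in 3 libraries against 0 cannot reach an exact two-sided p below 0.1, so no region was tested on its calls.

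Of the regions gained in both kinds of list, the 10 with the highest mean percentile include regions at Ptprj, Ccl5 and Acod1. Inside Ptprj, a receptor tyrosine phosphatase that acts on Src kinases, the region chr2:90544924-90545947 stood at percentiles 94.0, 91.9 and 94.1 of the 3 LPS lists (93.3 ± 1.25, SD, n = 3) and was absent from every untreated list. At Ccl5, the chemokine RANTES, the region chr11:83529336-83531156 stood at percentiles 87.6, 89.1 and 84.8 of the LPS lists, with authors' fold values of 58.9, 66.7 and 45.3, and no untreated library called it. At Acod1, whose start it contains, chr14:103046297-103047717 stood at percentiles 86.0, 86.2 and 89.2 of the LPS lists with folds of 53.8, 56.5 and 56.5, and was uncalled in untreated cells. Thus regions in the top part of every LPS list were missing from all untreated lists at these genes. A region 34.3 kb from Nfkbiz, which encodes IκBζ, a nuclear IκB protein needed for late cytokine genes, stood at 85.6, 82.9 and 89.2. The other 6 of the 10 strongest lay in Gm4606, Zeb2 (a zinc-finger repressor), Arhgef3 (a guanine nucleotide exchange factor) and Sash1, 9.75 kb from Atp8b4, and 42.4 kb from Hs1bp3, with mean list percentiles from 79.3 to 88.8.

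The GFP line splits these 10. None of its untreated libraries called the Ccl5, Acod1, Nfkbiz and Arhgef3 regions, while 1 called those at Ptprj, Gm4606, Atp8b4 and Sash1 and 3 called those at Hs1bp3 and Zeb2. All 3 GFP-line LPS libraries called all 10. With regions merged over all 12 lists the Ccl5 region was no longer gained, and with a 50% overlap required for a call the Sash1 region was not.

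Lost regions were weaker. The region within Magi1, a scaffold of cell junctions, chr6:94116522-94117310, was called in no LPS library and stood at percentiles 62.9, 52.7 and 56.8 of the untreated lists (57.5 ± 5.15, SD, n = 3), the highest mean among the regions lost in both kinds of list. At Ccnd1, the gene of cyclin D1, which drives entry into the cell cycle, chr7:144926670-144930863 was called in no LPS library and stood at 53.8, 54.6 and 60.1 in the untreated lists. Regions at Slc6a6, the taurine transporter, at Hs3st1, a heparan sulfate sulfotransferase, at Spg20 and at Dido1 were lost as well, as were regions near E2f3 (17.2 kb; a cell-cycle transcription factor), Slc25a40 (a mitochondrial carrier), Abi1 (an actin regulator of the WAVE complex) and Btbd8. Their mean untreated percentiles ran from 48.0 to 57.4. In the GFP line, 0 LPS and 3 untreated libraries called the Magi1, Ccnd1, Slc25a40 and Dido1 regions, and fewer LPS than untreated libraries called those at Slc6a6, Hs3st1 and Spg20. The Abi1 region was called in 1 LPS and 1 untreated GFP-line library, the E2f3 region in 2 LPS and 1 untreated, and the Btbd8 region in none. None of the 10 was lost in the strongest 20000 peaks of each list. In untreated replicates 1 and 3, with 55656 and 55446 peaks, all 10 ranked below that cut, so this outcome follows from their rank. Those at Btbd8, E2f3, Spg20 and Dido1 were not lost with a 50% overlap required.

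Rank shifts use the regions that all 6 libraries called, so that every library has the same number of ranks. A shift is the mean normal score of the rank in LPS minus that in untreated libraries, and a rank percentile is the place among these 29063 regions, from 0 (weakest) to 100. At the 1520 rises, the median percentile was 59.7, 62.6 and 63.1 in the LPS libraries and 26.8, 27.1 and 26.3 in the untreated libraries. At the 857 falls it was 17.3, 18.1 and 16.8 in LPS and 43.3, 51.2 and 42.4 in untreated libraries. The members were picked by these values, so the medians are a description. The median shift over all tested regions was −0.03.

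**Figure D1:**
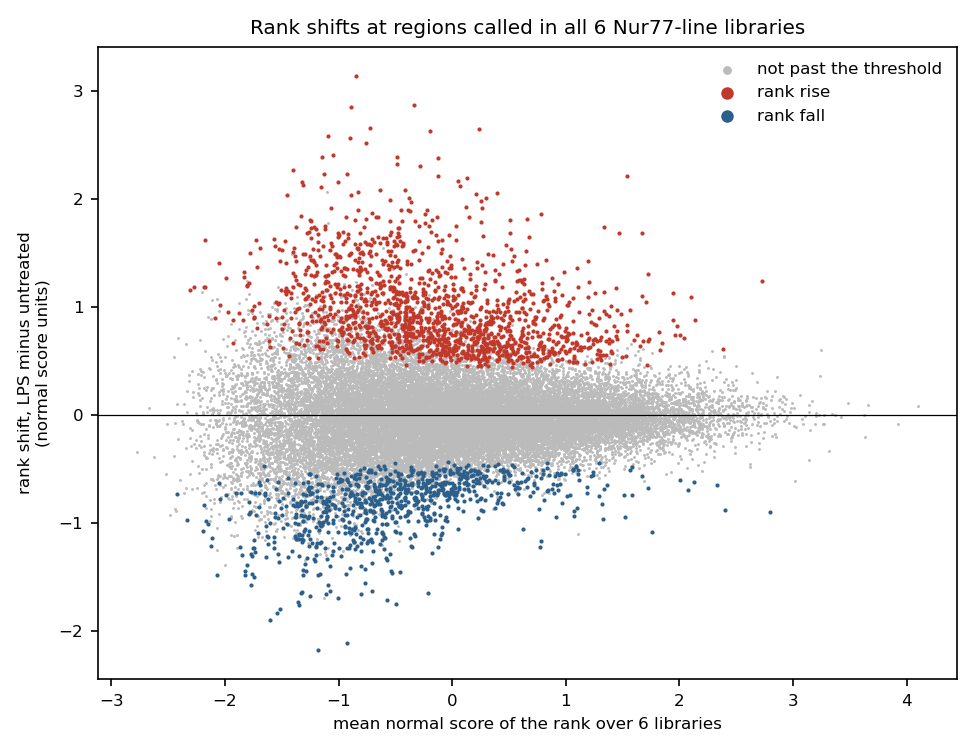
Each point is 1 of the 29063 regions called in all 6 Nur77-line libraries; the x axis is the mean normal score of its rank and the y axis the rank shift, LPS minus untreated, in normal score units. The 1520 rises (red) reach a shift of 3.14 and the 857 falls (blue) reach −2.18, and most regions lie around 0.

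Leaving out 1 library lowered the calls to between 510 and 897 rises, except without untreated replicate 2, where 1735 were called over a larger set of 34767 regions. Falls numbered 290, 237 and 246 without LPS replicate 1, 2 or 3 and 371, 466 and 336 without untreated replicate 1, 2 or 3. The rises without LPS replicate 1, 2 or 3 were 706, 510 and 590, and without untreated replicate 1 or 3 they were 897 and 817.

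The largest rise was inside Akap13, which anchors protein kinase A. That region, chr7:75500234-75501555, had rank percentiles of 72.1, 78.6 and 78.5 in LPS libraries and 0.963, 0.803 and 0.628 in untreated libraries. It thus lay well above the middle after LPS and among the weakest shared regions without it, a shift of 3.14 ± 0.12 (SE; limma adjusted p = 0.00021). A region 15.4 kb from Errfi1, a feedback inhibitor of the EGF receptor, chr4:150836845-150838372, stood at 87.7, 86.9 and 85.8 in LPS and at 12.6, 12.4 and 1.34 in untreated libraries (shift 2.62 ± 0.28, SE; limma adjusted p = 0.0031). Within Alpk2, an alpha-type kinase, chr18:65327811-65329602 stood at 94.1, 94.8 and 93.2 in LPS and 11.1, 16.4 and 14.8 in untreated libraries (shift 2.64 ± 0.12, SE; limma adjusted p = 0.00035). Trps1, a GATA-type repressor, held a region with a shift of 2.51, at 71.7, 63.8 and 71.0 in LPS and 0.963, 5.15 and 1.85 in untreated libraries. The other 6 of the 10 largest rises lay in St7 and near Irf2bpl, Aebp2 (a cofactor of Polycomb complex PRC2), Vxn, Cited2 (a CBP and p300 partner, at 1214 kb) and Adgrg6 (an adhesion receptor), with shifts from 2.41 to 2.86. The St7 call was lost without LPS replicate 1, 2 or 3 or untreated replicate 1 (highest limma adjusted p = 0.086), and the Cited2 call without LPS replicate 2 (limma adjusted p = 0.062).

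Among falls the largest was inside Man1c1, a Golgi mannosidase. The region chr4:134618625-134619939 had rank percentiles of 7.56, 0.267 and 0.502 in LPS libraries and 41.1, 54.6 and 43.9 in untreated libraries (shift −2.18 ± 0.33, SE; limma adjusted p = 0.0096). At Nr0b2, the gene of the orphan nuclear receptor SHP, the region over its start, chr4:133552831-133554153, stood at 2.31, 16.0 and 9.58 in LPS and 65.0, 60.4 and 57.3 in untreated libraries (shift −1.71 ± 0.24, SE; limma adjusted p = 0.0076). These regions were mid-ranked in untreated cells and close to the bottom after LPS. The other 8 lay in Abhd2, Gramd2, Ptprm (a receptor tyrosine phosphatase), Acvr2b (an activin receptor) and Ifitm10 and near Pyroxd2, Zdhhc14 (a palmitoyltransferase) and Hint1 (a nucleotide hydrolase), with shifts from −2.11 to −1.70. Leaving out a library ended the calls at Gramd2, Ifitm10, Zdhhc14 and Acvr2b, with highest limma adjusted p values of 0.092, 0.135, 0.085 and 0.051.

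**Figure D2:**
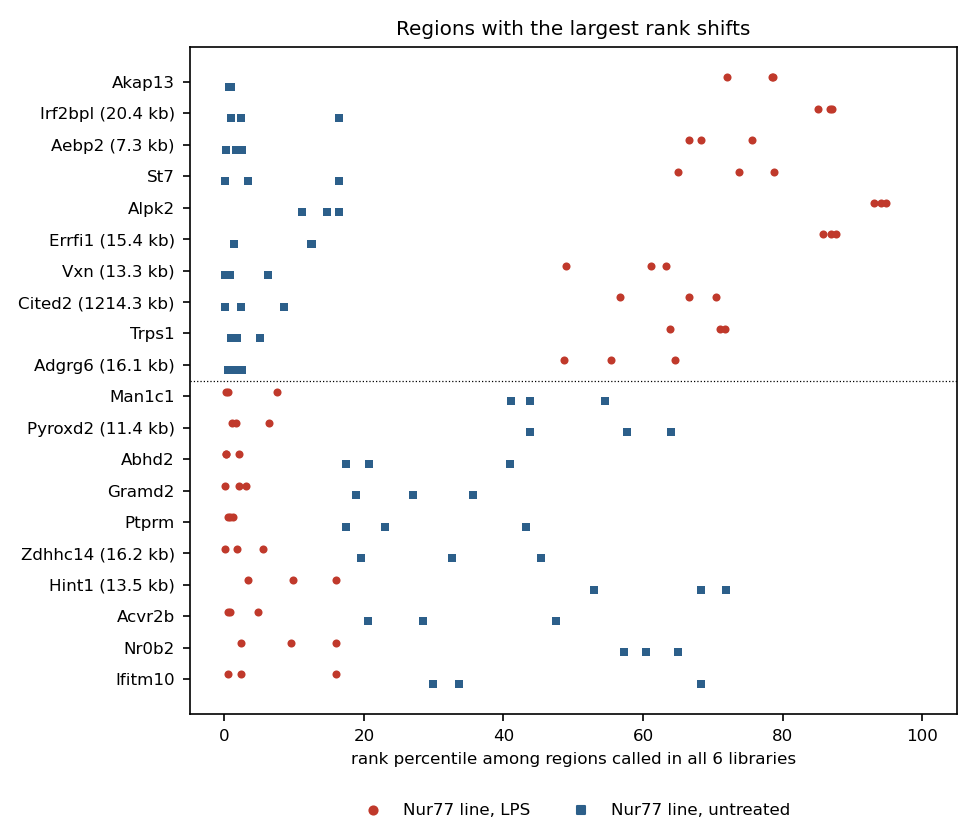
Rank percentile (x axis, 0 to 100) of the 10 largest rises (upper rows) and the 10 largest falls (lower rows), with 1 point per library for LPS (red circles) and untreated (blue squares); the distance to the gene is given where the region lies outside it. The 20 regions were taken only from those whose circles and squares do not overlap. They run from Akap13 at 72.1 to 78.6 against 0.628 to 0.963 down to Ifitm10 at 0.502 to 16.0 against 29.9 to 68.4.

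The gene lists were read by their counts of regions within 50 kb of a member. The strongest share of rises was at cytokines and chemokines, where 28 of 119 tested regions rose (23.5%) and 1 fell, against 5.23% and 2.95% of all tested regions. In that list 13 of 293 regions were gained (4.44%) and 2 lost (0.683%), against 2.11% and 0.505% of all regions. The start region shared by Tnf and Ltb, chr17:35192510-35203218, was already among the strongest, at 99.97, 99.96 and 99.96 in LPS and 98.7, 97.8 and 98.2 in untreated libraries, with a shift of 1.24 ± 0.11 (SE; limma adjusted p = 0.002). Ccl4, a macrophage inflammatory chemokine, held a region (chr11:83660762-83669559) at 99.4, 99.8 and 99.4 in LPS and at 67.8, 64.0 and 68.9 in untreated libraries, a shift of 2.21 ± 0.15 (SE; limma adjusted p = 0.001). The Cxcl2 start region, chr5:90902777-90910221, stood at 99.2, 99.8 and 98.9 in LPS and at 67.8, 89.6 and 77.5 in untreated libraries, a shift of 1.68 ± 0.23 (SE; limma adjusted p = 0.0071). Both chemokine regions thus stood higher in every LPS library than in any untreated one. The start regions of Csf1 (a macrophage growth factor) and Ccl9 had shifts of 0.58 and 0.62. Both calls ended when single libraries were left out (highest limma adjusted p = 0.091 and 0.096). On percentile ranks in place of normal scores the Tnf and Cxcl2 calls were lost (limma adjusted p = 0.681 and 0.0699).

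**Figure D3:**
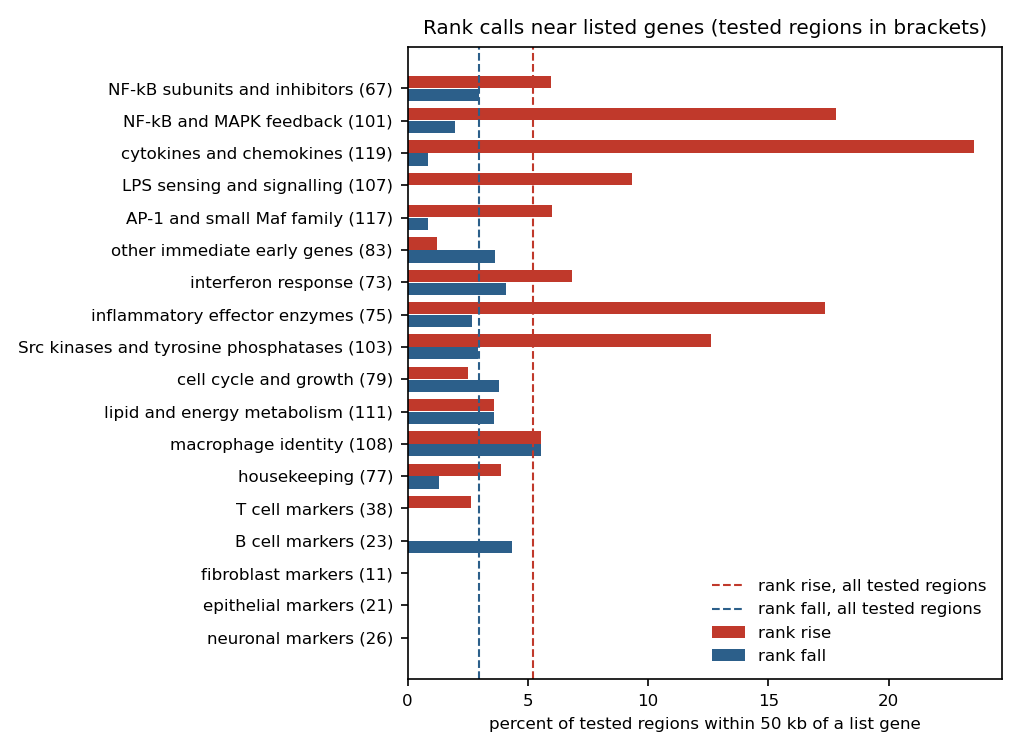
Percent of tested regions within 50 kb of a list gene that had a rank rise (red bars) or a rank fall (blue bars), with the number of tested regions in brackets and the shares over all 29063 tested regions as dashed lines (5.23% and 2.95%). Cytokines and chemokines reached 23.5% rises, NF-kB and MAPK feedback genes 17.8% and inflammatory effector enzymes 17.3%.

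Feedback genes, which end NF-κB and MAP kinase signals, had 18 rises and 2 falls among 101 tested regions (17.8% and 1.98%, against 5.23% and 2.95% of all tested regions) and 11 gained and 1 lost of 247 (4.45% and 0.405%, against 2.11% and 0.505% of all regions). The rises lay in or within 50 kb of Traf1, Tnip3, Cyld, Tnfaip3, Tnip1, Socs3, Dusp1, Ier3 and Dusp5. That of Cyld lay 44.9 kb away, with Nod2 as the nearest gene. Inside Traf1, a TNF receptor adaptor, chr2:34957024-34959326 stood at 89.8, 90.4 and 86.8 in LPS and at 46.3, 59.1 and 47.5 in untreated libraries (shift 1.21 ± 0.14, SE; limma adjusted p = 0.0036). The start region of Tnip1, a partner of the ubiquitin-editing protein A20, stood at 76.4, 82.3 and 75.1 in LPS and at 46.3, 38.5 and 43.1 in untreated libraries (shift 0.96 ± 0.13, SE; limma adjusted p = 0.006). The start regions of Socs3, an inhibitor of JAK kinases, and Ier3 had smaller shifts of 0.59 and 0.70, both lost when single libraries were left out (highest limma adjusted p = 0.120 and 0.104). Tnfaip3, the gene of A20, had 3 rises and 3 gained regions within 50 kb, values chosen after they were seen.

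For the NF-κB subunits and inhibitors themselves, gains outnumbered rises. Of 196 regions 15 were gained (7.65%, against 2.11% of all regions) and 0 lost. The 4 rises and 2 falls among 67 tested (5.97% and 2.99%) are close to the 5.23% and 2.95% of all tested regions. Of those 15 gained regions, 8 lay in or within 50 kb of Nfkb1, the p105/p50 subunit. Their mean list percentiles ran from 8.3 to 77.4, the highest at chr3:135639631-135641498. In trimmed lists 7 regions near this list were gained and 0 lost, of 108, against 2.75% and 1.42% of all regions in such lists. The start region of Nfkbia, the IκBα inhibitor, stood at 98.5, 98.9 and 97.3 in LPS and at 93.1, 94.8 and 92.8 in untreated libraries, a shift of 0.60 (limma adjusted p = 0.035) that was lost whichever library was left out (highest limma adjusted p = 0.119). Inside Nfkbiz, chr16:55837449-55839658 stood at 94.6, 93.7 and 94.7 in LPS and at 67.4, 79.5 and 73.9 in untreated libraries (shift 0.95 ± 0.13, SE; limma adjusted p = 0.0076).

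In the LPS sensing and signalling list, 10 of 107 tested regions rose (9.35%) and 0 fell, against 5.23% and 2.95% of all tested regions. Of 246 regions 5 were gained and 2 lost (2.03% and 0.813%). All regions had 2.11% gained and 0.505% lost, so the gained share was close to that. Inside Irak2, a kinase of the Toll-like receptor complex, chr6:113644215-113645551 stood at 92.3, 87.1 and 90.5 in LPS and at 44.3, 43.2 and 33.7 in untreated libraries (shift 1.53 ± 0.14, SE; limma adjusted p = 0.0019). The Tlr2 start region, at a shift of 0.74, lost its call when any library other than untreated replicate 2 was left out (highest limma adjusted p = 0.127). Among inflammatory effector enzymes 13 of 75 rose and 2 fell (17.3% and 2.67%), against 5.23% and 2.95% of all tested regions. The terminal prostaglandin E synthase Ptges had 2 named regions, of which chr2:30924702-30926319 stood at 96.5, 96.7 and 96.3 in LPS and at 72.3, 76.5 and 67.6 in untreated libraries (shift 1.22 ± 0.12, SE; limma adjusted p = 0.0023). A region of Ptgs1, the constitutive cyclooxygenase, stood lower, at 42.0, 55.7 and 42.9 in LPS and 71.5, 68.4 and 70.5 in untreated libraries (shift −0.61; limma adjusted p = 0.034, highest 0.118 with a library left out). Another region, chr2:36278599-36279641, outside Ptgs1 but with it as the nearest gene, went the other way (shift 0.64, limma adjusted p = 0.036). The region of the list at Arg1, the arginase gene, that was lost lay 4.0 kb from it and was also chosen after its values were seen.

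Src kinases and tyrosine phosphatases had 13 rises and 3 falls among 103 tested regions (12.6% and 2.91%), against 5.23% and 2.95% of all tested regions. Of 248 regions 7 were gained (2.82%) and 0 lost, against 2.11% and 0.505% of all regions. Inside Ptpn22, a phosphatase of immune signalling, chr3:103906280-103909677 stood at 84.6, 85.1 and 87.3 in LPS and at 28.4, 47.5 and 46.8 in untreated libraries (shift 1.31 ± 0.16, SE; limma adjusted p = 0.005). A gained region inside Lyn, a Src-family kinase, had a mean list percentile of 78.2, and regions of Src and Fgr had shifts of 0.70 and 0.59 whose calls ended with single libraries left out (highest limma adjusted p = 0.102 and 0.149).

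Rises near the 5.23% of all tested regions were seen for AP-1 and small Maf genes (7 of 117, 5.98%) and interferon response genes (5 of 73, 6.85%). Falls were 1 (0.855%) and 3 (4.11%), against 2.95% of all tested regions. Gained regions were 6 of 272 (2.21%) and 3 of 179 (1.68%), against 2.11% of all regions. The Maff start region, of a small Maf protein, rose by 0.78 (limma adjusted p = 0.013, highest 0.057 with a library left out). Other immediate early genes had 1 rise and 3 falls of 83 (1.20% and 3.61%). Of the falls 2 lay 49.9 and 37.0 kb from Klf2, with Ap1m1 as the nearest gene, and 1 lost region lay 3.7 kb from Klf2. Macrophage identity genes had 6 rises and 6 falls of 108 (5.56% each). Of 237 regions near them 3 were gained and 3 lost (1.27% each), against 2.11% and 0.505% of all regions. Housekeeping genes had 3 rises and 1 fall of 77 (3.90% and 1.30%).

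Lipid and energy metabolism genes had 0 gained and 8 lost of 267 regions (3.00% lost), against 2.11% gained and 0.505% lost of all regions. Of 111 tested regions 4 rose and 4 fell (3.60% each), against 5.23% and 2.95% of all tested regions. The lost regions included some in Fasn (fatty acid synthase), Idh2 (a mitochondrial dehydrogenase) and Nr1h3 (the liver X receptor alpha), and 2 that lay 8.7 and 26.6 kb from Sdhb (a subunit of succinate dehydrogenase). The 8 had mean list percentiles from 6.0 to 30.5, and none was among the 10 strongest. In trimmed lists 0 regions near this list were gained and 5 lost, of 171, against 1.42% lost of all regions in such lists. A region of Abca1, the cholesterol exporter, stood at 88.0, 86.6 and 89.7 in LPS and at 75.6, 72.9 and 76.4 in untreated libraries (shift 0.51; limma adjusted p = 0.036), a call lost whichever library was left out (highest 0.121). Another region inside Abca1, chr4:53154931-53155966, went the other way (shift −0.80, limma adjusted p = 0.044). Cell cycle and growth genes had 5 gained and 5 lost of 178. Those shares, 2.81% each, stand against 2.11% gained and 0.505% lost of all regions. Of the 5 gained regions 2 lay inside Cdk6, a kinase of the cell cycle, and 3 lay 43.5, 46.3 and 49.6 kb from it, and the lost ones lay in or near Ccnd1, Gas6, Lats2 and Mki67. A region of Lats2, a Hippo pathway kinase, stood at 57.0, 53.3 and 58.4 in LPS and at 76.0, 81.1 and 75.6 in untreated libraries (shift −0.60; limma adjusted p = 0.023, highest 0.092 with a library left out). Within 50 kb of markers of other cell types, rises and falls together were 1 of 38 for T cells, 1 of 23 for B cells and 0 of 11, 0 of 21 and 0 of 26 for fibroblasts, epithelium and neurons. All tested regions had 5.23% rises and 2.95% falls. Gained regions were 1 of 68, 1 of 50, 3 of 38 (7.89%), 2 of 52 (3.85%) and 0 of 63 for the same lists, against 2.11% of all regions, and lost regions were 1 for B cells and 0 for the others. The 3 gained near fibroblast markers all lay in or near Pdgfrb. One of these, chr18:61085869-61086610, was also counted as gained for Csf1r in the macrophage identity list. Beyond that region, the part of such regions in the counts of the other lists was not tested.

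Called width changed at few regions. Relative to each library's median, 167 of the 29063 regions (0.575%) were wider and 82 (0.282%) narrower after LPS by limma at an adjusted p under 0.05. Beside 5.23% rises and 2.95% falls over all tested regions, 102 of the 167 wider regions (61.1%) also had a rank rise and 0 a fall. Of the 82 narrower ones 21 (25.6%) had a fall and 0 a rise. Width and rank come from the same peaks, so this overlap is a description. With no centring on the library median 19 and 7 regions passed.

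Malt1, the paracaspase of NF-κB signalling, held a region (chr18:65477092-65492268) with 14300, 13732 and 10102 called bases in LPS libraries and 1063, 641 and 969 in untreated libraries, a 14.7-fold increase relative to the library medians (limma adjusted p = 0.00014). Oasl1, of the oligoadenylate synthetase family, had 10072, 10003 and 9899 called bases in LPS and 1148, 432 and 836 in untreated libraries (chr5:114932551-114942766; 13.6-fold; limma adjusted p = 0.00056). Regions were named for width only where the groups do not overlap, so every LPS library called more bases here than any untreated library. The merged regions span 15177 bp at Malt1 and 10216 bp at Oasl1. The region 4.7 kb from Nup107, a nuclear pore protein, had 11772, 10491 and 8307 called bases in LPS and 444, 337 and 1634 in untreated libraries, a 16.4-fold increase that did not pass without centring (limma adjusted p = 0.079). Fam20c, a Golgi kinase of secreted proteins, and Zc3h12c, of the Regnase family of RNA-cleaving proteins, completed the 5 largest, at 14.4-fold and 10.3-fold. The rank shifts of these regions passed the threshold at Nup107 (1.47; limma adjusted p = 0.027) and not at Malt1 (0.75; 0.053), Zc3h12c (0.68; 0.063), Fam20c (1.24; 0.14) or Oasl1 (0.59; 0.34).

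**Figure D4:**
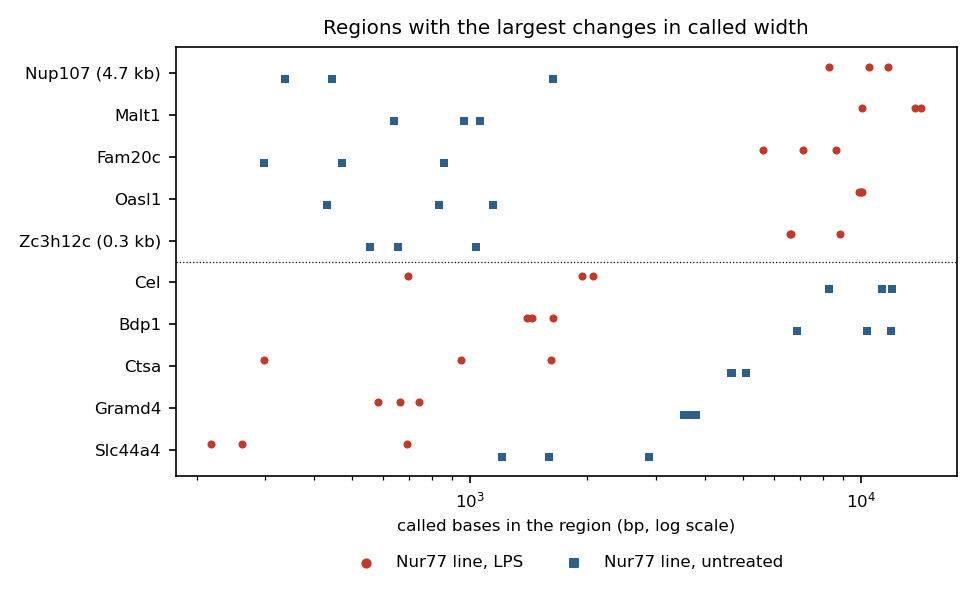
Called bases (x axis, log scale, bp) in the 5 regions with the largest width increases (upper rows) and the 5 with the largest decreases (lower rows), 1 point per library for LPS (red circles) and untreated (blue squares). Oasl1 lies at 9899 to 10072 bp in LPS against 432 to 1148 bp in untreated libraries, and Gramd4 at 584 to 743 bp against 3538 to 3798 bp.

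Narrower regions included the start region of Cel, the bile-salt-stimulated lipase, with 2071, 1934 and 695 called bases in LPS and 11343, 8298 and 12041 in untreated libraries (0.137-fold; limma adjusted p = 0.0065, and 0.10 without centring). The start region of Bdp1, a subunit of the RNA polymerase III factor TFIIIB, had 1628, 1445 and 1400 in LPS and 10345, 6881 and 11952 in untreated libraries (0.16-fold; limma adjusted p = 0.00022). Gramd4 had 584, 743 and 663 in LPS and 3798, 3538 and 3654 in untreated libraries (0.183-fold). Ctsa (cathepsin A) and Slc44a4 (a choline-like transporter) completed the 5, at 0.163-fold and 0.196-fold. Both calls were lost without centring (limma adjusted p = 0.28 each) and when single libraries were left out (highest 0.13 and 0.089).

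The strongest summit moved by at least 50 bp at 171 of the 29063 regions (0.588%). Leaving out untreated replicate 2 gave 267, over 34767 regions. Among the 14501 regions with 1 peak and 1 summit in every library, 1 moved, so nearly all shifts are changes in which of several peaks or summits of a region was strongest. Of the 171, 50 also had a rank rise (29.2%) and 2 a rank fall (1.17%), against 5.23% and 2.95% of all tested regions. Summit and rank come from the same strongest peak of a region, so this overlap is a description.

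At Ptprs, a receptor tyrosine phosphatase, the strongest summit lay 6801, 6802 and 6801 bp from the start of the region chr17:56471581-56480170 in LPS libraries and 1395, 1395 and 1414 bp from it in untreated libraries, a move of 5400 ± 9.3 bp (SE; limma adjusted p = 5.7e-09). At Gpr84, a receptor for medium-chain fatty acids, it lay at 7107, 7137 and 7095 bp in LPS and 1785, 1805 and 1774 bp in untreated libraries (chr15:103303565-103312111). In both, the replicates of a group placed the summit close together, and the groups used different parts of the region. Regions were named for summits only where the groups do not overlap. Pmp22, a myelin membrane protein, had a move of 4871 bp. Moves toward lower coordinates were largest at Arhgef10, a guanine nucleotide exchange factor (−3306 bp), and 27.8 kb from Nol4l (−2586 bp).

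**Figure D5:**
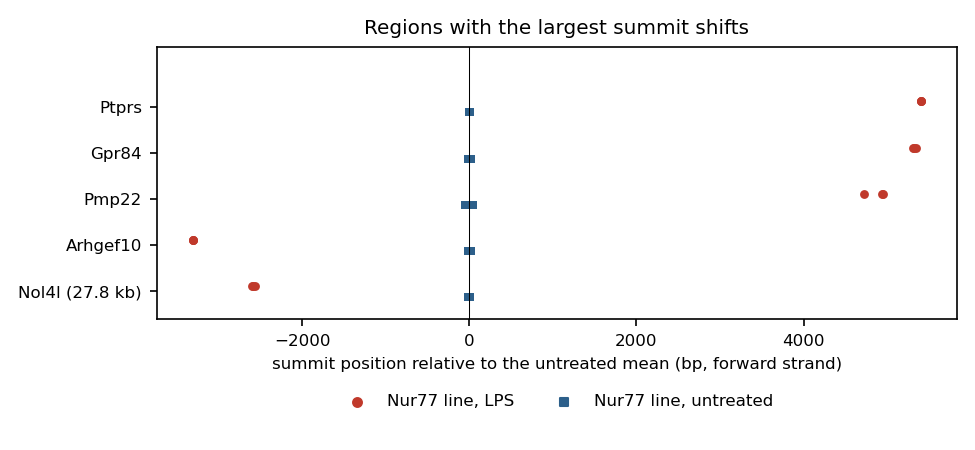
Position of the strongest summit (x axis, bp on the forward strand) relative to the mean of the 3 untreated libraries at the 5 regions with the largest summit shifts, 1 point per library for LPS (red circles) and untreated (blue squares). LPS summits lie 5400, 5325 and 4871 bp to the right at Ptprs, Gpr84 and Pmp22 and, at −3306 and −2586 bp, to the left at Arhgef10 and Nol4l.

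Set beside the GFP line, most Nur77-line changes had the same direction there. Of the 1563 gained regions, 464 (29.7%) were called in 3 GFP-line LPS libraries and 0 GFP-line untreated libraries, against 1.62% of all regions. In 1221 (78.1%) more GFP-line LPS than untreated libraries called the region, against 15.6% of all regions. Fewer called it in 62, and no GFP-line library did in 36. Of the 374 lost regions, 44 (11.8%) were called in 0 GFP-line LPS and 3 untreated libraries and 261 (69.8%) in fewer LPS than untreated libraries, against 0.849% and 21.2% of all regions.

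Among the 1520 rank rises, 1426 were called in all 12 libraries of both lines, with a median shift of 0.89 in the Nur77 line and 0.86 in the GFP line, and 1405 of them (98.5%) had a positive shift in the GFP line, against 42.9% of all such regions. Among the 857 falls, 668 were called in all 12, with median shifts of −0.78 in the Nur77 line and −0.60 in the GFP line, and 36 (5.39%) had a positive shift in the GFP line. The Nur77-line values chose these regions, so the smaller GFP-line medians cannot be read as smaller responses. Tested directly, the rank shift differed between the lines at 0 of 26378 regions (0%) by limma at an adjusted p under 0.05. The lowest adjusted p was 0.181, and 1944 regions had an unadjusted p under 0.05.

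Side by side over regions called in all 12 libraries, the shifts were 1.25 in the Nur77 line and 1.22 in the GFP line at Tnf, 1.72 and 1.81 at Cxcl2, 2.26 and 2.01 at Ccl4, 2.59 and 2.61 at Trps1, and 2.73 and 3.16 at Errfi1. Wider gaps stood at Traf1, with 1.26 in the Nur77 line and 2.05 in the GFP line (limma unadjusted p = 0.0068), at Gramd2, with −1.96 and −0.45 (limma unadjusted p = 0.010), and at Ptprm, with −1.90 and −0.63 (limma unadjusted p = 0.00080). None of these passed the adjustment. The Akap13 region could not be tested this way, since 3 GFP-line LPS libraries and 0 untreated ones called it, and the Man1c1 and Nr0b2 regions were each called in 1 GFP-line LPS library and 3 untreated ones.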

How the data were processed

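ATAC-seq peak lists of 12 RAW264.7 samples were used, 6 of them from the Nur77 line. The build was mm10 and the tools named were DiffBind 3.0.15 and cutadapt 2.6, per the submitters' processing notes, while an aligner or a peak caller is not given in the sources used here. By the names in the deposited lists, reads had a mapping quality of 20, duplicates and mitochondrial reads were removed, and the q value limit was 0.001. Each library was called separately. The deposited score is the authors' whole number per peak and was read only as a label of the −log10 q. The deposited fold, a ratio, is the authors' enrichment of the summit over background. The −log10 p and −log10 q were given by the authors for each summit, and the summit offset in bp is the authors' position within the peak. All describe or rank peaks within a list.

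Rows with equal start and end were collapsed, chromosomes 1 to 19, X and Y kept, and overlapping or touching peaks of the 6 lists merged. Overlap of 1 bp or more made a region called in a library. Ranks by −log10 q over regions called in all 6 were turned into normal scores and tested with limma 3.58.1 (R 4.3.3), as were log2 called bases centred on the library median and summit positions, with Benjamini-Hochberg adjustment at 0.05. The line comparison was a limma interaction over regions called in all 12 lists. Library values had exact permutation tests. The scripts were tested on simulated data. Genes come from RefSeq GRCm38.p6 by distance to the gene span. Coordinates have 1-based starts. Promoter sequences were at hand for 146 of 195 list genes, and 1 gene of the interferon list was not matched.

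Named regions are the 10 strongest gained and 10 strongest lost in both full and trimmed lists, up to 30 regions nearest to list genes with at most 3 per gene, and Nr4a1. Also named are the 10 largest rank rises and falls, the 5 largest changes in width each way and the 5 largest summit shifts. These largest shifts were taken only from regions without overlap between groups, a condition not set for the regions nearest to list genes. The regions compared, gene lists and tests were chosen with earlier results of these data known. Alternatives were trimmed lists, a −log10 q of at least 5, the strongest 20000 peaks, 50% overlap, regions of all 12 lists, ranking by fold, percentile ranks, the upper 50% of regions by mean rank, list length as a covariate, the replicate number as a block, no width centring, other summit minimums, 100 kb distances and leaving out each library. Peak lists hold no read totals, so precision is limited by the 3 libraries a group. Other software was matplotlib 3.10.9, scipy 1.17.1, pandas 2.3.3, numpy 2.4.6 and Python 3.11.15.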

Additional observations from a re-analysis of the deposited data

How the results depend on the processing

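Trimming every list to the shortest gave 669 lost regions in place of 374, with 60 of the 374 among them. The strongest 20000 peaks gave 915 gained in place of 1563 and 518 lost in place of 374. Of the 1563 gained regions 78 were gained there too, and of the 374 lost regions 0 were lost, so these are largely different regions. Width calls without centring were 19 wider and 7 narrower. Summit calls among regions with a single peak and summit were 1. The called length differed by 0.707 Mb between LPS and untreated lists as deposited and by −0.594 Mb in trimmed lists (exact permutation tests, adjusted p = 1 and 0.9). Rank falls within 100 kb of list genes were 54, against 31 within 50 kb. With 1 library left out, gained regions ranged from 1611 to 3019, lost from 439 to 2156, rises from 510 to 1735, falls from 237 to 466, wider from 66 to 188, narrower from 28 to 69 and summit shifts from 199 to 267, while the line difference stayed at 0 to 0. The lowest adjusted p of that difference was 0.053, without untreated replicate 2.

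Whether replicate numbers pair the samples cannot be told from 3 libraries a group, whose deviations from the group mean cancel out. Deviations of same-numbered LPS and untreated libraries correlated at 0.070, 0.132 and 0.002, and the other pairs at −0.123 to 0.097. The highest value belonged to a same-numbered pair, replicate 2, while LPS replicate 1 correlated best with untreated replicate 3 (0.097). With the replicate block, 1239 rises, 641 falls, 133 wider, 66 narrower and 122 moved summits passed, and 0 line differences. Of the 45 named regions tested on rank, 24 kept the call in every fit that left out 1 library, as did 8 of 10 named for width and 5 of 5 for summits. On percentile ranks 11 of the 45 lost the call (Tnf, Tlr2, Nfkbia, Cxcl2, Socs3, Abhd2, Ptprm, Ifitm10 and a region each at Ptges, Nfkbiz and Irak2), and with the block 7 did (Socs3, Ier3, Abca1, Fgr, Lats2, Ptgs1 and a region at Irak2; limma adjusted p from 0.051 to 0.067). Ranking by fold gave the same ranks as −log10 q. Read totals are unknown, so what depth limits cannot be stated. In untreated replicate 2 the lowest rank was shared by 1.60% of the regions called in all 6, so low ranks there are coarse.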
